A study of Mus musculus with 24 samples.

Results

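Leukocyte adhesion molecules let blood cells slow down, stop and cross the vessel wall. The 10 genes described here (Vcam1, Icam1, Icam2, Sele, Selp, Selplg, Itgb2, Itga4, Madcam1 and F11r) were chosen by name, as the rows of the count tables whose Ensembl identifier carries one of these symbols in the GENCODE mouse annotation. All 10 were found among the 55421 genes of the tables. RNA was sequenced from carotid arteries of ovariectomized female C57BL/6 mice, in 4 groups of 6 libraries, each with its own number, taken here to be an animal number. The vehicle group, named OVX in the labels, received a placebo (pellets of cholesterol only in the study's methods), and the other groups received 17β-estradiol (E2), estetrol (E4) or tamoxifen (TAM). E2 and E4 are natural estrogens, E4 carrying additional hydroxyl groups on the steroid, and tamoxifen is a synthetic selective modulator of the estrogen receptor. The labels give an age of 9 weeks for all mice, and the series' design text gives 3 weeks of treatment for E2 and tamoxifen, whereas the study's methods describe a shorter treatment of ovariectomized mice. The pellets held different amounts of E2 and E4, which the study chose for a like estrogenic effect, judged by the uterus, and the sources used here give no tamoxifen dose. The arteries were not injured, according to the study's methods. The treatment field of the E4 libraries reads placebo, and these libraries were placed in the E4 group by their titles.

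Adhesion proceeds in steps. The selectins E-selectin (Sele) and P-selectin (Selp), on activated endothelium and, for P-selectin, also on platelets, bind carbohydrates on leukocytes and slow them to a roll. The main ligand of P-selectin is PSGL-1 (Selplg), carried by leukocytes. Integrins on the leukocyte then bind immunoglobulin-like proteins on the endothelium: the β2 integrins (Itgb2 encodes the shared chain) bind ICAM-1 and ICAM-2, and the α4 integrins (Itga4) bind VCAM-1 and, in gut vessels, MAdCAM-1. F11r encodes JAM-A, a protein of the junctions between endothelial cells, which leukocytes engage as they cross. Inflammatory cytokines raise Vcam1, Icam1 and Sele in cultured endothelium through the transcription factor NF-κB. In an artery, VCAM-1 and ICAM-1 are also made by smooth muscle cells and fibroblasts, so bulk RNA does not assign these transcripts to a cell.

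Coordinates are in GRCm38. Vcam1 (ENSMUSG00000027962) lies on the minus strand at chr3:116109949-116129688, Icam1 (ENSMUSG00000037405) on the plus strand at chr9:21015985-21028817 and Icam2 (ENSMUSG00000001029) on the minus strand at chr11:106377656-106388075. Sele (ENSMUSG00000026582, chr1:164048234-164057677) and Selp (ENSMUSG00000026580, chr1:164115264-164150026) are neighbours on the plus strand, and F11r (ENSMUSG00000038235, chr1:171437535-171464603, plus strand) is on the same chromosome. Selplg (ENSMUSG00000048163) is on the minus strand at chr5:113818536-113832644, Itgb2 (ENSMUSG00000000290) on the plus strand at chr10:77530252-77565708, Itga4 (ENSMUSG00000027009) on the plus strand at chr2:79255426-79333123 and Madcam1 (ENSMUSG00000020310) on the plus strand at chr10:79664559-79668537. For 4 of the 10, part of the exon sequence is shared with a gene on the opposite strand: 0.688% of the exon bases of Vcam1 (Gm43109), 11.7% of Icam1 (Gm47079), 14.1% of Selp (Gm16587 and Gm16548) and 8.04% of Itga4 (Cerkl). The kit marks strand, but the strand setting of the counting is not given in the sources used here, so reads in these stretches cannot be assigned with certainty.

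The promoters of Icam1 and Sele are shown because both genes are textbook targets of NF-κB, and because the 2 regions share a short motif. RefSeq windows (GRCm38.p6) were matched for 6 of the 10 genes, and the 250 bases before the annotated start of each were searched on both strands. Capitals mark GGAAATTC or its reverse complement GAATTTCC, the core of an NF-κB site, and, in Sele, the TATA box TATAAA. The Icam1 sequence is chr9:21015690-21015939, plus strand, and the Sele sequence is chr1:164047984-164048233, plus strand.

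Icam1: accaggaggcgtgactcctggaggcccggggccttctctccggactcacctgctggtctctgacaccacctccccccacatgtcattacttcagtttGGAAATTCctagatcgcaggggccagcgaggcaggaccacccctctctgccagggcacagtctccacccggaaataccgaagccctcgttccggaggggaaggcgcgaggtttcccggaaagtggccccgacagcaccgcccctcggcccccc

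Sele: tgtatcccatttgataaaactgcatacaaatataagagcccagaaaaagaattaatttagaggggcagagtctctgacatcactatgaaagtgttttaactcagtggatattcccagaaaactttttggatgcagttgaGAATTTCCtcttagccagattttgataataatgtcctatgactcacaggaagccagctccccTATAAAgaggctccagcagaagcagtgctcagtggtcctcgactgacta

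The NF-κB core stood 153 to 146 bases before the start in Icam1 and 111 to 104 bases before it in Sele. It was present in 0.782% of all 32851 promoter windows, and in 2 of the 6 windows of these genes. TATAAA was present in 12.4% of all windows and, among these 6, in Sele only, at 49 to 44 bases before the start. The palindromic consensus estrogen response element was present in 0.0639% of all windows and in none of these 6. The motifs were chosen after the sequences had been seen, and a match is a stretch of letters, not a bound site.

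Levels are given as CPM, the count relative to the library total after scaling by the TMM method of edgeR, as mean ± SD of 6 libraries. Library totals ranged from 24647246 to 64221401 (median 45156106). Levels of different genes were compared only after division by exon length. In vehicle-treated arteries the order of mean CPM per kb of exon was F11r (17.9), Icam2 (13.8), Vcam1 (6.59), Icam1 (4.63), Itgb2 (3.41), Selp (2.83), Selplg (2.35), Itga4 (1.72), Sele (0.63) and Madcam1 (0.0505). Neighbours in this order overlapped in the ranges of their vehicle libraries, apart from Icam2 and Vcam1, Itga4 and Sele, and Sele and Madcam1. Madcam1, which serves homing to the gut, was counted 0 to 8 times in vehicle libraries and at most 16 times in any library, and edgeR's filter on low counts removed it. The other 9 genes entered the test. Endothelial markers were all detected (9 of 9), and the mean log2 CPM of this list was 5.21 to 5.90 in vehicle, 5.37 to 5.58 in E2, 5.09 to 5.67 in E4 and 5.07 to 5.98 in TAM libraries. Some libraries differed in tissue content. The sympathetic ganglion marker mean was 0.561 in vehicle replicate C5 and 3.38 in TAM replicate C35, against 6.21 to 8.20 in the others. In E2 replicate C9 the T cell marker mean was 4.11, against at most 1.24 in the other E2 libraries, and in E4 replicate C38 the thyroid and parathyroid marker mean was 4.38. In bulk tissue, fewer cells of a type and less RNA per cell cannot be told apart.

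**Figure D1:**
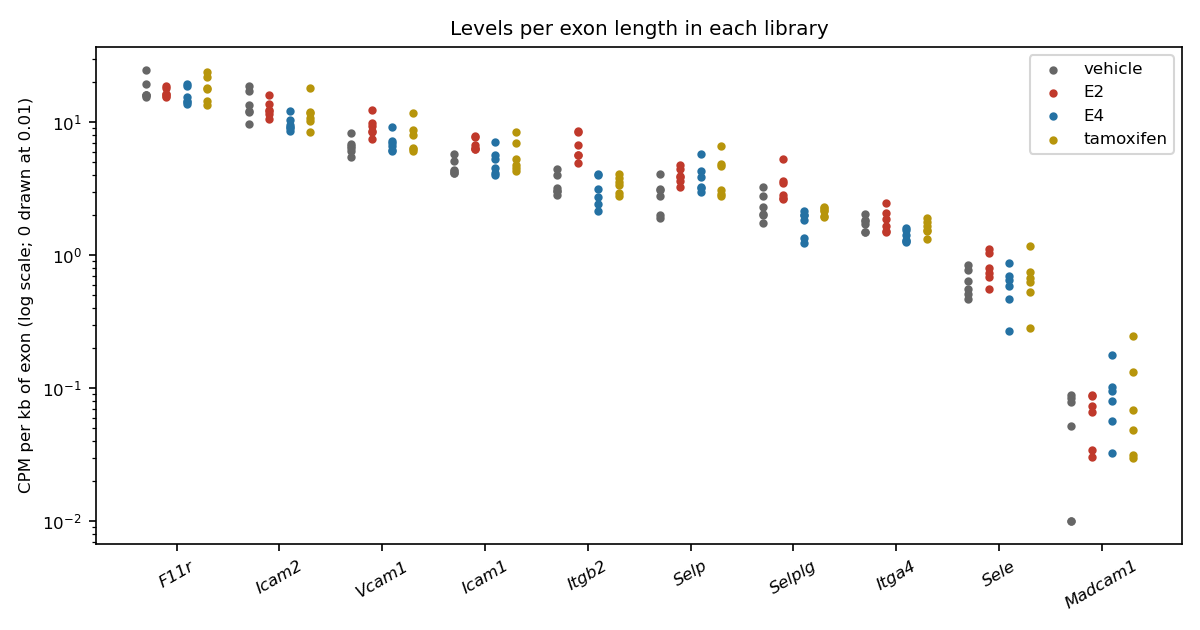
CPM per kb of exon of the 10 genes in each of the 24 libraries, on a log scale, with a point for each library and a colour for each treatment group (2 vehicle libraries with no Madcam1 count are drawn at 0.01). F11r and Icam2 were highest and Madcam1 lowest, and within a gene most groups overlapped.

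The first question was how E2 altered adhesion gene expression compared with vehicle. With E2, the RNA of Itgb2, which encodes the β2 integrin chain, was 1.95-fold higher and that of Icam1 1.48-fold higher. Both were called, and no gene of the 9 was called lower (quasi-likelihood test of edgeR, Benjamini-Hochberg adjusted p under 0.05). These 2 of 9 stand against 4.16% of all 25033 tested genes called in either direction and 2.88% called higher. The median log2 fold change of the 9 genes was 0.48, against 0.01 over all tested genes. Itgb2 is a leukocyte gene, whereas Icam1 is expressed by endothelium and other cells of the wall.

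Itgb2 was at 8.64, 9.45 and 13.5 CPM (lowest, median and highest) in vehicle libraries and at 15.0, 18.8 and 26.3 CPM in E2 libraries. All 6 E2 libraries lay above all 6 vehicle libraries. The mean was 10.4 ± 1.97 CPM with vehicle and 20.3 ± 4.78 CPM with E2, a log2 fold change of 0.97 ± 0.17 (SE; edgeR adjusted p = 0.000725). Icam1 was at 17.9, 18.9 and 25.05 CPM in vehicle libraries and at 27.3, 28.4 and 34.3 CPM in E2 libraries. Again the groups did not overlap, as was the case for 2% of all tested genes in this direction. The log2 fold change of Icam1 was 0.57 ± 0.16 (SE; edgeR adjusted p = 0.038). Leaving out a single library took the adjusted p of Icam1 to between 0.0112 and 0.0844, and the call was lost without any of vehicle C2, C3, C24 or C25 or E2 C6, C8, C9 or C27 (log2 fold change 0.52 to 0.64 over all single omissions). The Itgb2 call was kept in all such fits, with log2 fold changes of 0.88 to 1.06.

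Of the 7 genes that did not pass, 5 had E2 means above vehicle, and 3 of these (Vcam1, Selplg and Selp) had an unadjusted p under 0.05. Vcam1, which encodes a ligand of the α4 integrins, was at 48.7, 57.6 and 73.0 CPM in vehicle libraries and at 65.6, 79.9 and 110.0 CPM in E2 libraries, and 5 of 6 E2 libraries lay above all vehicle libraries. Its log2 fold change was 0.51 ± 0.15 (SE; edgeR adjusted p = 0.0585), and it passed when vehicle C4, E2 C29, TAM C35 or E4 C39 was left out. Selplg, the leukocyte ligand of P-selectin, was at 7.43, 9.29 and 13.8 CPM with vehicle and at 11.2, 13.5 and 22.4 CPM with E2, and 3 of 6 E2 libraries lay above all vehicle libraries (log2 fold change 0.54 ± 0.17; edgeR adjusted p = 0.0825). The highest value, 22.4 CPM, belonged to C9, the library with the high T cell markers. Selp was at 8.43, 12.95 and 18.1 CPM with vehicle and at 14.2, 17.2 and 20.9 CPM with E2, and the groups overlapped (log2 fold change 0.48 ± 0.21; edgeR adjusted p = 0.249). Sele, F11r, Itga4 and Icam2 had log2 fold changes between -0.12 and 0.39 (edgeR adjusted p 0.556 to 0.827). For Sele, the rarest of the tested genes, the 95% interval ran from -0.17 to 0.95, and changes within this range were not excluded.

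**Figure D2:**
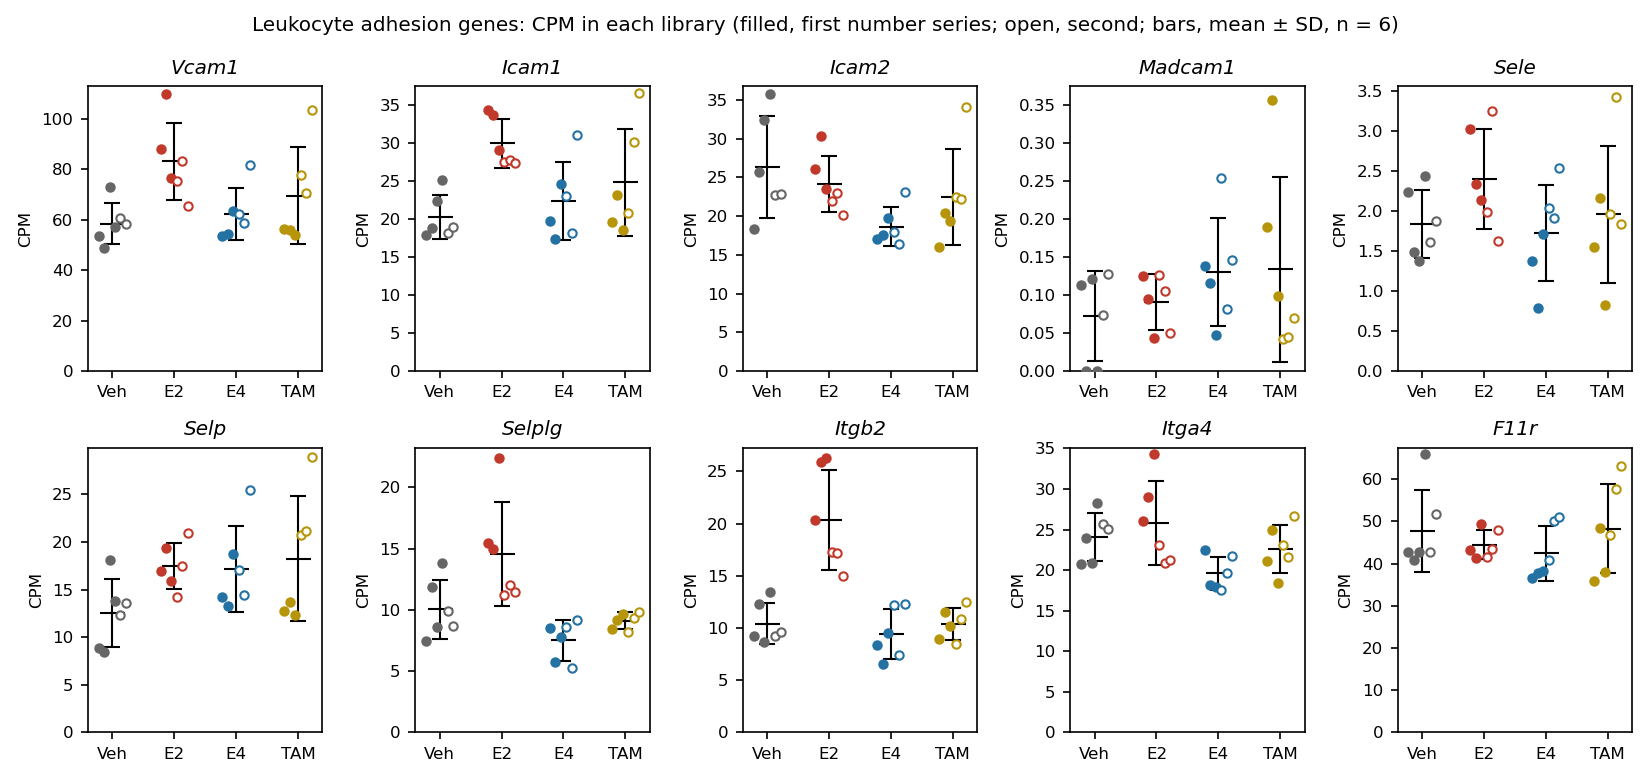
CPM of each of the 10 genes in the 24 libraries by group (Veh, vehicle; TAM, tamoxifen), with filled points for the first and open points for the second series of animal numbers and black bars for mean ± SD (n = 6). Itgb2 and Icam1 in E2 libraries lie above all vehicle libraries, and TAM C35 is the highest TAM point in 8 of the 10 panels.

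Leukocyte markers were set beside these values. All 8 macrophage markers were called higher in E2 than in vehicle, with log2 fold changes of 0.60 to 1.24, and for 6 of the 8 the groups did not overlap. The macrophage marker mean (log2 CPM) was 5.17 to 5.97 in vehicle libraries, 6.10 to 6.51 in E2, 4.78 to 5.73 in E4 and 5.21 to 5.44 in TAM libraries. No marker of this list was at or near 0, the lowest being Cd68 at 6.73 CPM. Of the 7 pan-leukocyte markers, 4 were called higher with E2, and their mean was 3.80 to 4.39 in vehicle, 4.30 to 5.17 in E2, 3.29 to 4.02 in E4 and 3.68 to 4.06 in TAM libraries. The 7 B cell markers all had E2 means below vehicle (median log2 fold change -0.87), with 0 called by edgeR and 4 at an unadjusted p under 0.05. The 7 T cell markers all had E2 means above vehicle (median 1.25), with 0 called by edgeR and 1 at an unadjusted p under 0.05. Their E2 values included C9, where the list mean was 4.11. The median of the list mean over libraries was 0.03 in E2 and 0.53 in vehicle. Itgb2 lay 2.04 ± 0.26 log2 units below the macrophage marker mean in vehicle, 2.01 ± 0.26 below it in E2, 2.06 ± 0.19 in E4 and 1.93 ± 0.14 in TAM libraries, a distance that differed between groups by less than the spread between libraries. Against the pan-leukocyte mean its distance did differ, at 0.71 ± 0.16 below it in vehicle, 0.33 ± 0.10 in E2, 0.45 ± 0.22 in E4 and 0.53 ± 0.14 in TAM libraries. Selplg lay 0.77, 0.82, 0.77 and 0.71 log2 units below the pan-leukocyte mean in vehicle, E2, E4 and TAM libraries. Set against the endothelial mean, Icam1 was at 1.12 ± 0.15 log2 units below it in vehicle and 0.54 ± 0.18 below it in E2. With the macrophage mean as a covariate, an alternative chosen after the data had been seen, the log2 fold change of Itgb2 was 0.18 (edgeR adjusted p = 0.624) and that of Icam1 was -0.21 (0.489). With the endothelial mean as a covariate, Icam1 stayed at 0.58 (edgeR adjusted p = 0.00019). The macrophage mean itself differs between E2 and vehicle, so in that fit E2 and marker content cannot be told apart.

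**Figure D3:**
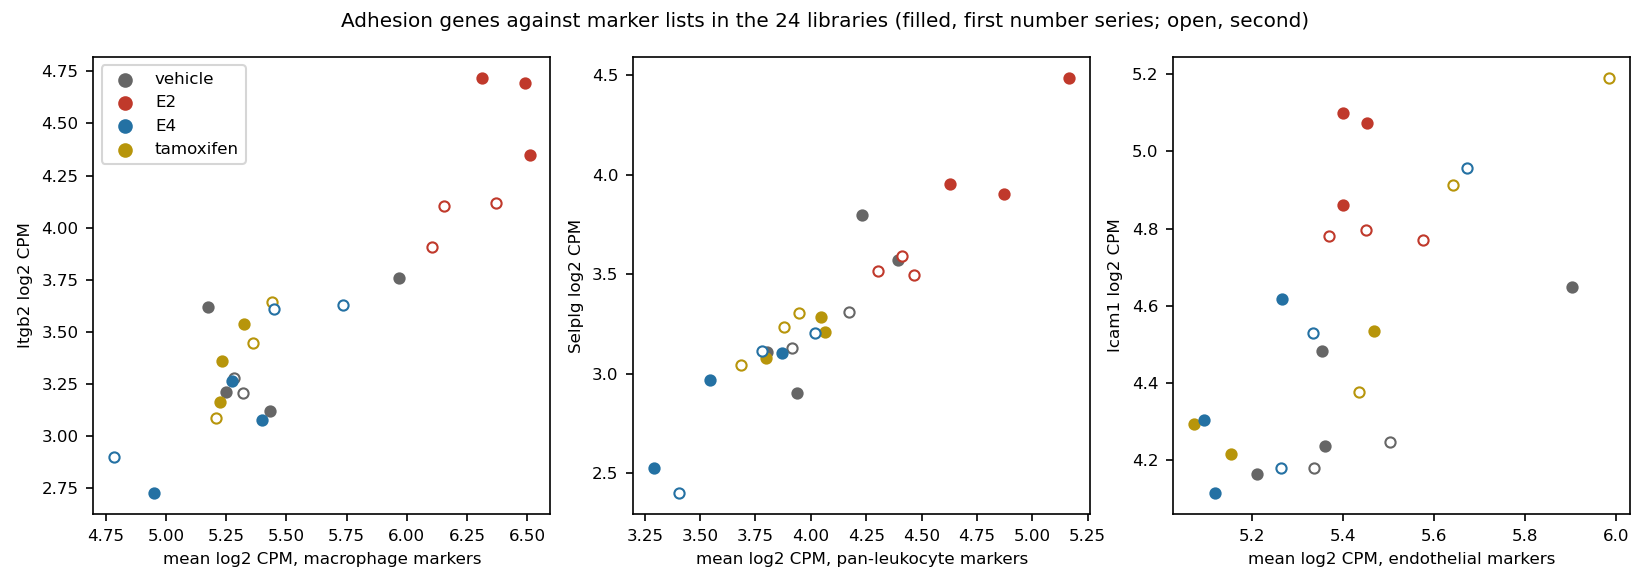
Log2 CPM of Itgb2, Selplg and Icam1 (vertical axes) against the mean log2 CPM of macrophage, pan-leukocyte and endothelial markers (horizontal axes) in the 24 libraries, coloured by group, with filled points for the first and open points for the second series of animal numbers. Itgb2 rises with the macrophage mean and Selplg with the pan-leukocyte mean over all groups, whereas Icam1 in E2 libraries lies above vehicle libraries at like endothelial means.

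The animal numbers of every group fall in 2 series, which the sources used here do not call batches. In the first series alone (4 vehicle and 3 E2 libraries) the log2 fold change of Itgb2 was 1.15 (edgeR adjusted p = 0.008), and in the second (2 and 3 libraries) it was 0.80 (0.274). Icam1 was at 0.62 in the first series (0.0699) and 0.56 in the second (0.547). Both genes were thus higher with E2 in each series, and Itgb2 passed the test in the first only. Over all genes, 340 of 25409 were called with E2 in the first series and 92 of 25498 in the second.

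E4 was next compared with vehicle. Icam2, the constitutive endothelial ligand of β2 integrins, was 1.41-fold lower with E4, and it was the 1 gene of 9 called, against 22% of all tested genes called in either direction and 12.5% called lower. The share of these genes that changed was therefore not above the background. Icam2 was at 18.4, 24.3 and 35.8 CPM in vehicle libraries and at 16.4, 17.7 and 23.2 CPM in E4 libraries. The groups overlapped, with 4 of 6 E4 libraries below all vehicle libraries. Its log2 fold change was -0.50 ± 0.16 (SE; edgeR adjusted p = 0.0316). The highest vehicle value was that of C5, and without this library the log2 fold change was -0.38 (edgeR adjusted p = 0.104). The call was also lost without vehicle C3 or C4, or without any of E4 C16, C19, C20, C36 or C38. Of the 9 endothelial markers, Egfl7, Emcn and Sox17 fell with E4 (log2 fold changes -0.67, -0.61 and -0.39) and Vwf, von Willebrand factor, rose (1.27). With the endothelial mean as a covariate, Icam2 was at -0.35 (edgeR adjusted p = 0.0327), and with the B cell mean it was at -0.27 (0.69). Of the 7 B cell markers, 6 fell with E4, and their mean log2 CPM was -0.36 to 2.14 in vehicle and -1.39 to -0.02 in E4 libraries. With that covariate 89 of all 25033 genes were called. Fibroblast markers, which Icam2 followed closely from library to library, were also lower with E4 (5 of 5 below vehicle, 3 of them called, median log2 fold change -0.64), with a mean of 8.84 to 9.60 in vehicle and 8.31 to 9.01 in E4 libraries. Icam2 followed the smooth muscle mean as closely, and those 5 markers had a median of -0.19 with E4 (0 called, 2 at an unadjusted p under 0.05). Ganglion markers, which varied against Icam2, had E4 means above vehicle (8 of 8, 0 called, median 0.97). Their mean was 0.561 to 7.62 in vehicle and 7.45 to 8.20 in E4 libraries. The part of fibroblast and smooth muscle content in the Icam2 difference was not tested.

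Selp was again higher on average with E4, at 13.2, 15.7 and 25.4 CPM, without passing the test (log2 fold change 0.46 ± 0.21; edgeR adjusted p = 0.12). Itga4 was at 20.8, 24.5 and 28.3 CPM with vehicle and at 17.6, 18.9 and 22.5 CPM with E4, and 4 of 6 E4 libraries lay below all vehicle libraries (log2 fold change -0.30 ± 0.12; edgeR adjusted p = 0.0669). Selplg was at 5.23, 8.16 and 9.18 CPM with E4 (log2 fold change -0.42 ± 0.17; edgeR adjusted p = 0.0853). The remaining 5 genes (Sele, F11r, Vcam1, Itgb2 and Icam1) had log2 fold changes between -0.17 and 0.14 (edgeR adjusted p 0.368 to 0.837). For Itgb2 the 95% interval was -0.49 to 0.20, and for Icam1 it was -0.18 to 0.47. These intervals include no change, and they do not show that E4 left the genes unaltered.

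With tamoxifen, none of the 9 genes was called by edgeR, against 2.21% of all tested genes, and 1 gene, Selp, had an unadjusted p under 0.05. DESeq2 also called 0 of them. Selp was at 12.3, 17.2 and 28.9 CPM in TAM libraries, 3 of 6 above all vehicle libraries, with a log2 fold change of 0.54 ± 0.21 (edgeR adjusted p = 0.145). The other 8 genes had log2 fold changes between -0.23 and 0.29 (edgeR adjusted p 0.285 to 0.9995). For Vcam1 the 95% interval was -0.06 to 0.56, and for Icam1 it was -0.03 to 0.62. TAM replicate C35, whose smooth muscle marker mean was the highest (10.2) and whose ganglion markers were low, held the highest value of its group in 8 of the 10 genes. Vehicle C5 held it in 7 and E4 C39 in 8, and both, like C35, had the lowest ganglion marker mean of their group. In the E2 group this was not so: C8 had the lowest ganglion mean and held the highest value of 2 genes, and C9 held that of 4. The part of tissue content in these values was not tested.

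Selp means were thus above vehicle by 0.48, 0.46 and 0.54 on the log2 scale with E2, E4 and TAM, in comparisons that share the 6 vehicle libraries, and no one of them passed the test. Von Willebrand factor (Vwf), which is stored with P-selectin in endothelial granules, was called higher in all 3 comparisons (log2 fold changes 1.22, 1.27 and 0.97), from 87.2 CPM with vehicle to 202.5, 210.5 and 170.7 CPM with E2, E4 and TAM. Vwf was singled out after its values were seen, and the 9 endothelial markers that include it had median log2 fold changes of -0.14, -0.33 and -0.13. Platelet markers, which bear on Selp because platelets carry P-selectin, were not called with E2 by edgeR (0 of 5 tested, 2 at an unadjusted p under 0.05), although all 5 had E2 means above vehicle and the list mean was 1.12 ± 0.38 log2 CPM with vehicle and 1.64 ± 0.24 with E2, and 2 of 5, Ppbp and Pf4, fell with E4. F11r, the highest of the 10 genes per kb of exon, was at 47.8 ± 9.71, 44.5 ± 3.41, 42.4 ± 6.50 and 48.3 ± 10.6 CPM in vehicle, E2, E4 and TAM libraries, and passed in no comparison. Madcam1, outside the fit, was at 0.0725, 0.0907, 0.130 and 0.134 CPM on average, and in exact two-sided permutation tests of log2 CPM against vehicle the p was 0.394, 0.167 and 0.286 (0.394 for each after adjustment over 3 tests; the smallest p possible was 0.00216).

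**Figure D4:**
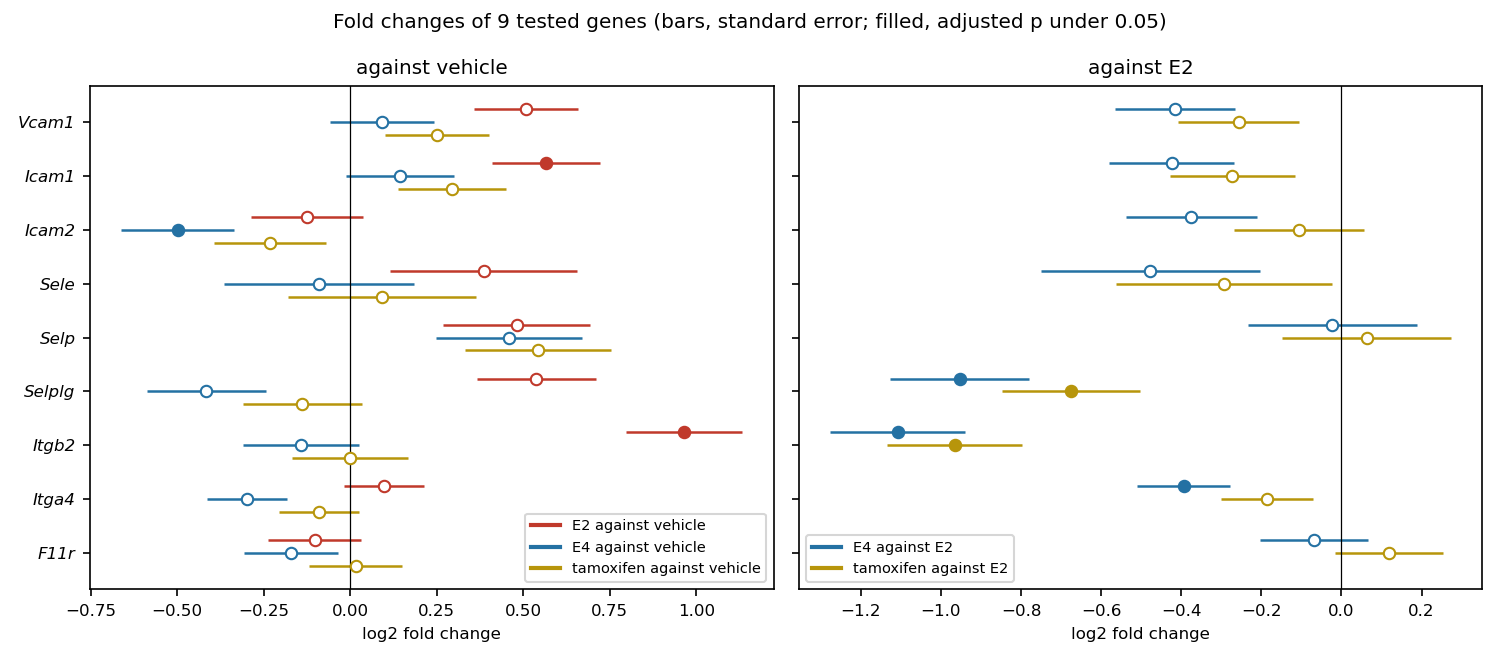
Log2 fold changes of the 9 tested genes against vehicle (left) and against E2 (right), with standard errors as bars, and filled points for an edgeR adjusted p under 0.05. Itgb2 is 0.97 above vehicle with E2 and 1.11 and 0.97 below E2 with E4 and TAM, whereas Selp lies on the same side of vehicle with each treatment without passing the test.

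The treatments were then compared with each other. Itgb2 was 2.16-fold, Selplg 1.94-fold and Itga4 1.31-fold lower with E4 than with E2, and all 9 genes had E4 means below E2 on the fitted scale. These 3 of 9 stand against 12.5% of all tested genes called in either direction and 8.97% called lower. For Itgb2 (6.57, 8.98 and 12.3 CPM with E4) and Selplg, all 6 E4 libraries lay below all 6 E2 libraries, as in 4.13% of all tested genes. The log2 fold change was -1.11 ± 0.17 for Itgb2 (edgeR adjusted p = 0.000274) and -0.95 ± 0.17 for Selplg (0.00122). Itga4 was at 20.9, 24.6 and 34.3 CPM with E2, and the groups overlapped, with 4 of 6 E4 libraries below all E2 libraries (log2 fold change -0.39 ± 0.12; edgeR adjusted p = 0.0296). This call was lost without E2 C6, C8 or C9 or without E4 C19, C20 or C36, with adjusted p up to 0.0935. Vcam1 (-0.42, edgeR adjusted p = 0.0699), Icam1 (-0.42, 0.0742) and Icam2 (-0.37, 0.124) were lower on average with E4, each with 5 of 6 E4 libraries below all E2 libraries. Other marker lists moved with this comparison. All 7 T cell markers were called lower with E4 than with E2 (median log2 fold change -2.86, with C9 in the E2 group), as were all 8 macrophage, 6 of 7 pan-leukocyte and 4 of 5 fibroblast markers. So were 3 of 5 tested platelet (median -1.08) and 2 of 5 tested neutrophil markers (median -1.54). With the pan-leukocyte mean as a covariate, Itgb2 was at -0.10, Selplg at 0.12 and Itga4 at 0.16 (edgeR adjusted p = 0.96 for each). With the macrophage mean they were at -0.23, -0.11 and -0.01 (edgeR adjusted p 0.638, 0.859 and 0.981). No call was left in either fit, among these or all tested genes, and since both means differ between E4 and E2, treatment and marker content cannot be told apart there. The part of T cell, fibroblast, platelet and neutrophil content was not tested. In Vcam1 the library that overlapped was E4 C39, at 81.6 CPM.

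Between tamoxifen and E2, 2 of 9 genes were called, both lower with TAM, against 6.44% of all tested genes called in either direction and 4.51% called lower. Itgb2 was at 8.45, 10.5 and 12.5 CPM with TAM, all below E2 (log2 fold change -0.97 ± 0.17; edgeR adjusted p = 0.000763). Selplg was at 8.20, 9.28 and 9.84 CPM with TAM, also all below E2, as in 3.13% of all tested genes (-0.68 ± 0.17; edgeR adjusted p = 0.0191). Without E2 C9 the Selplg difference was -0.51 (edgeR adjusted p = 0.0645). With the pan-leukocyte mean as a covariate Itgb2 was at -0.19 and Selplg at 0.15 (edgeR adjusted p 0.778 and 0.805), and with the macrophage mean they were at -0.09 and 0.17 (0.852 and 0.725). The other 7 genes had log2 fold changes between -0.29 and 0.12. All 8 macrophage markers were lower with E4 and with TAM than with E2, and for each of them the groups did not overlap. With TAM, 5 of 7 pan-leukocyte and 2 of 5 platelet markers were also called lower than with E2. The 7 T cell markers were all lower on average (median -1.77, 1 called, with C9 in the E2 group). All 5 smooth muscle markers were higher on average (median 0.43, 1 called). The part of these lists was not tested, apart from the macrophage and pan-leukocyte covariates above. Between tamoxifen and E4, 0 of 9 genes were called, against 0.34% of all tested genes, and none had an unadjusted p under 0.05, with log2 fold changes of 0.09 to 0.28. DESeq2 called 0 as well. The 95% interval for Itgb2 was -0.21 to 0.49. With the study's rule, which also asks for an absolute log2 fold change over 1, Itgb2 in E4 against E2 was the 1 call among the 9 genes in all 6 comparisons. That rule called 1.27%, 2.51% and 0.308% of all tested genes with E2, E4 and TAM against vehicle, 2.47% and 1.65% with E4 and TAM against E2, and 0.196% with TAM against E4.

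Within the first number series, Itgb2 and Selplg were at -1.56 and -1.26 for E4 against E2, and in the second at -0.61 and -0.57. For TAM against E2 the values were -1.25 and -0.96 in the first series and -0.62 and -0.32 in the second. The direction was shared by both series, and 0 genes of the 9 passed in the second series in any of the comparisons. In the second series edgeR called few genes at all: 0 of 25498 for E4 against E2 and for TAM against vehicle (1843 and 1636 at an unadjusted p under 0.05), 5 for E4 against vehicle, 17 for TAM against E4 and 115 for TAM against E2.

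Genes of the same steps were counted from 4 lists. Of 14 leukocyte integrins, their activators and further ICAM genes, 3 were called higher with E2 and 0 lower (list median 0.29, against 0.01 over all genes, of which 4.16% were called and 2.88% called higher): Itgam, the α chain that pairs with Itgb2 in Mac-1, rose from 10.3 to 28.7 CPM (log2 fold change 1.48 ± 0.15; edgeR adjusted p = 3.57e-07) without overlap, and the integrin activators Apbb1ip (0.70) and Fermt3 (0.69) rose as well. With E4, 2 of the 14 rose and 4 fell (list median -0.31), where 22% of all tested genes were called in either direction and 12.5% lower. Leukocyte markers moved with this comparison: 3 of 7 pan-leukocyte markers were called lower with E4 (median -0.41), and all 7 T cell markers had E4 means below vehicle (median -1.69, 1 called). The integrin adaptor Tln1 (0.56) and Icam5 (1.09) rose, and Cytip (-0.94), Itgae (-0.87), Rasgrp2 (-0.71) and Itgb7 (-0.49) fell. With TAM, Tln1 alone of the 14 was called (0.49), against 2.21% of all tested genes. Against E2, 8 of the 14 were lower with E4 and 3 with TAM, Itgam among them (-1.26 and -1.49), where 8.97% and 4.51% of all tested genes were called lower.

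Of 12 tested selectin ligands and enzymes that build their carbohydrates, Cd34, a sialomucin of endothelium and other cells, rose with E2 (0.72; 331.9 to 546.5 CPM) and the sulfotransferase Chst2 fell (-0.69), 2 calls of 12 against 4.16% of all tested genes. With E4, 2 of the 12 fell, the glycosyltransferase Gcnt1 (-0.54) among them, against 22% of all tested genes called in either direction and 12.5% called lower. With TAM 0 of the 12 passed by edgeR (2 at an unadjusted p under 0.05), against 2.21% of all tested genes. In all, 5 of the 12 were lower and Chst2 was higher with E4 than with E2, where 8.97% of all tested genes were called lower and 12.5% in either direction. Between TAM and E2, Cd34 was lower (-0.78) and Chst2 higher (0.78) with TAM, against 6.44% of all tested genes called. Of 14 junction and transmigration genes, 0 passed with E2 by edgeR (2 at an unadjusted p under 0.05), and the cytoskeletal linker Msn was higher with E4 (0.48) and with TAM (0.39), the 1 call of 14 in each, against 22% and 2.21% of all tested genes. Jam3, encoding JAM-C, was 0.37 higher with TAM than with E2, where 1 of the 14 was called, against 6.44% of all tested genes. Between E4 and E2, 0 of the 14 were called by edgeR (5 at an unadjusted p under 0.05), against 12.5%. Of 13 genes for cytokines, a chemokine, receptors and NF-κB signalling, known from the induction of endothelial adhesion genes, 0 passed with E2 by edgeR (3 at an unadjusted p under 0.05). With E4 the NF-κB inhibitor Nfkbia rose (0.70; 51.3 to 83.4 CPM) and the cytokines Tnf (-1.67) and Il1b (-1.19) fell, both from low levels (0.728 and 1.21 CPM with vehicle). These 3 of 13 are a share near the 22% of all tested genes called with E4. None of the 13 was called with TAM (2 at an unadjusted p under 0.05), against 2.21% of all tested genes. The chemokine Ccl2 was lower with E4 (-1.05) and with TAM (-0.76) than with E2. In each of these 2 comparisons 1 of the 13 was called, against 12.5% and 6.44% of all tested genes.

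Expression was also followed from library to library within groups. After each group's mean was subtracted, the gene whose log2 CPM varied most like Icam2 over the 24 libraries was Lmo2 (Pearson r = 0.93), then Gpx7 and Clec14a, among 19528 genes. For F11r it was Emcn (0.92), for Selplg the pseudogene Gmfg-ps (0.94) and then Rac2 (0.90), and for Itgb2 Pde6h (0.91), Cd84 (0.89) and Fcrls (0.89). For Icam1 the nearest were Capg, Axl and Serping1 (0.91, 0.91 and 0.90), and for Sele the nearest, Trf, reached 0.74. The genes nearest to Vcam1, Selp and Itga4 were Gm43109 (0.92), Gm16548 (0.92) and Cerkl (0.91), which are the opposite-strand neighbours that share exon bases with them. Deviations of Icam2 had an r of 0.86 with the fibroblast and 0.86 with the smooth muscle marker mean, 0.75 with the endothelial mean and -0.73 with the ganglion mean. Those of Vcam1 had an r of 0.81 with the smooth muscle, 0.74 with the fibroblast and 0.58 with the endothelial mean. These values are descriptions of 24 libraries that share tissue composition and depth.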

How the data were processed

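The authors deposited 1 table per library with estimated counts per gene, not normalized. The submitters' processing notes name bcl2fastq 2.17, Trim Galore, Bowtie2, featureCounts and the builds mm10 and GRCm38. Values with decimals (8.87% to 9.8% per library) were rounded. Symbols and coordinates come from GENCODE mouse release 21, which holds 55240 of the 55421 identifiers.

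All 24 libraries (4 groups of 6, grouped by title) entered a single fit with edgeR 4.0.16 (R 4.3.3), using TMM scaling, filterByExpr, glmQLFit and glmQLFTest without covariates, and Benjamini-Hochberg adjustment over 25033 genes. A gene was called at an adjusted p under 0.05. The study's further rule, an absolute log2 fold change over 1, was counted as an alternative. Standard errors derive from the F statistic. The labels number the libraries without saying that they are separate mice, so p-values measure the spread between these libraries. Depth (24647246 to 64221401 counts) limits Sele and Madcam1 most.

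The members, lists and motifs were chosen with earlier results of these data known. All 10 members were named. A member's log2 fold change was printed on its own where the unadjusted p was under 0.05, and otherwise as a range with others or as an interval. In related lists, up to 3 called genes in each direction were named against vehicle, and Itgb7, Vwf and those named against E2 were chosen after their values were seen. A gene of the selectin ligand list is included in that list's counts and is not reported here by itself. Marker lists were given as means of log2 CPM. Likeness used genes of at least 1 CPM on average.

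Alternatives covered DESeq2 1.42.0, scaling, filters, libraries in the fit, number series, covariates, thresholds and single omissions. On simulated counts for E2 against vehicle (24787 genes), 71.7% of 99 genes changed 2-fold and 94.9% of 99 changed 4-fold were called, with 8 unchanged genes. Promoters are RefSeq's (GRCm38.p6). Python 3.11.15 with scipy 1.17.1 and matplotlib 3.10.9 was used for exact tests and figures.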

Additional observations from a re-analysis of the deposited data

Results flagged for a closer look

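In groups of 6 libraries, a value was picked out where its gap to the nearest other library exceeded 0.625 of the group's range. Of 40 groups of values (10 genes in 4 treatment groups), 2 were picked out, and about 2 are expected by chance. Vcam1 was at 81.6 CPM in E4 replicate C39, against 53.7 to 63.4 CPM in the other 5 E4 libraries, a gap of 0.65 of the range. Icam2 was at 34.2 CPM in tamoxifen replicate C35, against 15.99 to 22.5 CPM in the other 5, a gap of 0.641 of the range. C35 also had the lowest ganglion marker mean of its group (3.38), and C39 had the lowest of the E4 group (7.45). The part of tissue content in these values was not tested.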

How the results depend on the processing

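The members called with E2 against vehicle (2) were 4 with DESeq2, without vehicle C5 and tamoxifen C35, or with the ganglion mean as covariate, 5 with the endothelial mean, 1 with upper-quartile scaling, without a filter, in the first number series or at an adjusted p under 0.01, and 0 in the second series, with the pan-leukocyte or macrophage mean as covariate or with the fold rule. Over all genes, 1041 of 25033 were called in the single fit, 1549 with DESeq2 and 1667 of 25184 without C5 and C35. With the ganglion, endothelial, pan-leukocyte and macrophage means, 2194, 1682, 769 and 726 genes were called. For E4 against vehicle (1), the member count was 2 with upper-quartile scaling or only the groups compared, 3 with the endothelial mean, and 0 without a filter, in either series, with the pan-leukocyte or B cell mean, at 0.01 or with the fold rule. Of all genes, 5514 were called in the single fit, 5931 with upper-quartile scaling and 4403 of 23934 with only the groups compared. The endothelial, pan-leukocyte and B cell means gave 5924, 839 and 89 genes. For E4 against E2 (3) the member count was 6 with only the groups compared or without C5 and C35, 5 with 18 libraries or the first series, 1 with the fold rule, and 0 in the second series or with the pan-leukocyte or macrophage mean. Itga4 did not pass at 0.01 (edgeR adjusted p = 0.0296). Of all genes, 3134 of 25033 were called in the single fit. This rose to 5348 of 23821 with only the groups compared and to 6467 of 25184 without C5 and C35. With 18 libraries 2691 of 24646 were called, and in the first series 3193 of 25409. For tamoxifen against E2 (2) the member count was 4 in the first series or without C5 and C35, 1 at 0.01, and 0 in the second series, with the pan-leukocyte or macrophage mean or with the fold rule. Of all genes, 1612 were called in the single fit, 1164 of 25409 in the first series and 3335 of 25184 without C5 and C35. The pan-leukocyte and macrophage means gave 119 and 537 genes. Where the count was 0 for E4 against E2, edgeR also called 0 of all tested genes (second series, pan-leukocyte and macrophage mean, with 1843, 1272 and 4057 at an unadjusted p under 0.05). The fold changes themselves moved under the covariates, that of Itgb2 from -1.11 to -0.10 and -0.23. The member count was 0 for tamoxifen against vehicle and against E4 in all 17 alternatives. Leaving out single libraries gave 1 to 3 with E2, 0 to 3 with E4, 0 to 0 with tamoxifen, 2 to 5 for E4 against E2, 1 to 2 for tamoxifen against E2 and 0 to 0 for tamoxifen against E4.

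Of 285 member values under other alternatives, 218 kept direction and side of the threshold, 28 fell short of it, 27 newly passed and 12 reversed. Under single omissions 395 of 432 kept both, and 0 reversed. With the macrophage mean (chosen after seeing the data) the reversed log2 fold changes were Vcam1 0.12, Icam1 0.45 and Icam2 0.42 for E4 against E2, Icam1 -0.21, Selp -0.16 and Selplg -0.21 for E2 against vehicle, and Selplg 0.17 for tamoxifen against E2. With the pan-leukocyte mean they were Selplg -0.0896 (E2 against vehicle), 0.0303 (E4 against vehicle), 0.12 (E4 against E2) and 0.15 (tamoxifen against E2), and Itga4 0.16 (E4 against E2). Both means differ between the groups, and the cause was not tested. The second series holds 2 vehicle and 3 E2, E4 and tamoxifen libraries each. No paired analysis was possible because the animal numbers of the groups do not repeat.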
